A study of Mus musculus with 16 samples.

Results

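The genes described here encode the nuclear-made subunits of the oxidative phosphorylation machinery. They were taken by symbol from the deposited gene tables, as every symbol that begins with Nduf, Uqcr or Atp5, or with Cox followed by a digit from 4 to 8, together with Sdha, Sdhb, Sdhc, Sdhd and Cyc1, provided that at least 1 of 12 libraries held a read. Of the 24421 genes in the tables, 93 met the rule, and 20978 genes had a read. The 93 comprise 36 subunits of complex I, 8 complex I assembly factors and 4 subunits of complex II, with 9 members counted with complex III, 20 with complex IV and 16 with complex V. The Nduf prefix brings in the Ndufaf assembly factors, which are not subunits, and Ndufa4 with its paralog Ndufa4l2, which were counted with complex IV. Atp5sl (Dmac2), brought in by the Atp5 prefix, was counted with the assembly factors. Atp5s (Dmac2l) and Cox7a2l were counted with complexes V and IV by name alone. The rule used names and not values.

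RNA of the somatosensory cortex was sequenced from wild-type (WT) C57BL/6 mice and from AcPb-/- mice, which lack the brain isoform b of the interleukin-1 receptor accessory protein in every cell. The mice were described as males aged 2 to 3 months, and the AcPb-/- mice as homozygous offspring of a line bred in house. Control mice (CTL) of each genotype were left undisturbed, and sleep-disrupted mice (SD) were kept awake by gentle handling from ZT20 to ZT4, where ZT0 is lights on. All mice were killed at ZT4, so control and SD mice were compared at 1 time of day. Each of the 4 groups had 3 libraries, and 4 of the 16 labelled samples were not analysed here.

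In the inner mitochondrial membrane, complex I (NADH dehydrogenase) and complex II (succinate dehydrogenase) pass electrons to ubiquinone, complex III passes them to cytochrome c, and complex IV (cytochrome c oxidase) passes them to oxygen. Complexes I, III and IV pump protons, and complex V (ATP synthase) uses the gradient to make ATP. Complexes I, III, IV and V are built partly from proteins encoded in mitochondrial DNA and partly from those of nuclear genes. Most nuclear subunits are small accessory proteins. In cortex, much of the ATP made in this way pays for ion pumping and synaptic transmission. The 13 genes encoded in mitochondrial DNA were not analysed here.

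Reads on genes numbered 26504840 to 41615582 in the control libraries and 58770286 to 71857505 in the SD libraries, so depth moved with treatment. Of the 6 control libraries, 4 (CTL-WT 02 and 03, CTL-AcPb-/- 04 and 05) held 25352 to 39358 reads of Xist, the RNA made from the inactive X in females, and at most 2 reads of Y-linked genes, against their label as male. The other 8 libraries held at most 13 Xist reads and at least 5105 Y-linked reads. Within each genotype, every SD result therefore sets 3 libraries of the second kind against 3 controls that are mostly of the first. Values with a term for this difference and without the 4 libraries are given below. Il1rap, the gene of the targeted isoform, stood at 31.6 to 35.2 CPM (counts scaled to the library total) in the controls of both genotypes and at 36.4 to 41.99 CPM after SD. Its total overlapped between genotypes in controls and was higher in every AcPb-/- library (40.4 to 41.99 CPM) than in any WT library (36.4 to 39.4 CPM) after SD. Isoforms cannot be read from these tables, so the genotype labels could not be checked. Markers of excitatory cortical neurons summed to 1878 to 2021 CPM in WT controls and 1584 to 1790 CPM in WT mice after SD, and to 2084 to 2193 CPM and 1800 to 1910 CPM in AcPb-/- mice, so every SD library lay below every control of its genotype. Choroid plexus markers summed to 377 CPM in SD-AcPb-/- 04 and to at most 11.4 CPM elsewhere.

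**Figure D1:**
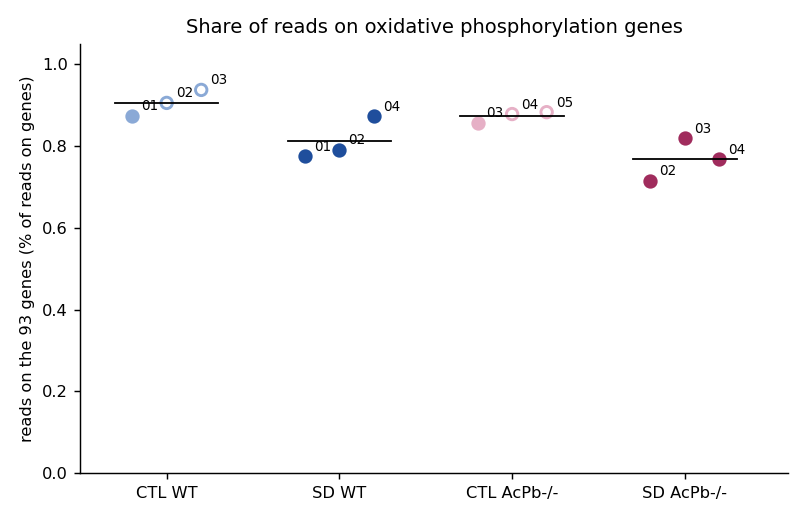
Share of reads that fell on the 93 oxidative phosphorylation genes, as a percent of reads on all genes (vertical axis), for each library of the 4 groups. Points are libraries with their replicate number, open points are libraries with Xist reads, and lines are group means. Controls sit between 0.858% and 0.938%, and SD libraries between 0.715% and 0.873%, with SD-WT 04 the highest of them.

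The 93 genes together took a smaller share of the reads after SD. In WT controls they held 0.874%, 0.906% and 0.938% of the reads on genes, and after SD 0.776%, 0.791% and 0.873%. In AcPb-/- controls the shares were 0.858%, 0.878% and 0.883%, and after SD 0.715%, 0.820% and 0.769%. The groups did not overlap in either genotype, but the highest WT library after SD, 04, lay just under the lowest WT control. In this bulk tissue, fewer cells that express a gene and less of its RNA per cell cannot be told apart.

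Per kilobase of transcript, the abundant members were the catalytic β subunit of ATP synthase and a few subunits of complex IV. Levels are given here as RPKM, mean ± SD over 3 libraries of WT controls. RPKM is recovered reads scaled to the total of the library and to the mean length of the annotated transcripts of a gene. Atp5b stood at 547 ± 13.9 RPKM and Cox8a at 542 ± 15.5 RPKM, which did not differ beyond their spread, followed by Cox4i1 at 433 ± 3.32 RPKM, Cox6a1 at 332 ± 7.38 RPKM and Atp5a1, the α subunit, at 308 ± 9.08 RPKM. Altogether 32 members reached 100 RPKM and 89 reached 1 RPKM.

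Where complex IV subunits have tissue isoforms, the common form dominated. Cox4i2, the isoform known from lung, stood at 1.43 ± 0.218 RPKM. The forms known from heart and muscle were at 10.5 ± 1.43 RPKM for Cox6a2, 2.25 ± 0.0874 RPKM for Cox7a1 and 0.314 ± 0.133 RPKM for Cox8b, and Ndufa4l2 stood at 2.23 ± 0.271 RPKM beside 298 ± 32.6 RPKM for Ndufa4. The 3 genes for the c ring of ATP synthase, whose mature proteins are the same, were ordered Atp5g3 (222 ± 13.4 RPKM), Atp5g2 (62.8 ± 3.91 RPKM) and Atp5g1 (27.0 ± 2.92 RPKM), and their ranges did not overlap. The order of the last pair rests on the lengths used, 586 bases for Atp5g2 and 2665.5 for Atp5g1. Before scaling to length, Atp5g1 had more reads than Atp5g2. Most of the sequence of Atp5g2 recurs elsewhere, with 86.4% of its stretches of 100 bases in other genes, so its level is uncertain. Ndufs5 and Cox8c had 1 read each over all libraries and are not discussed further. Ndufs5 shares 13.9% of its stretches with BC002163, so reads could have been counted there.

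After SD, members of every complex changed, and more of them fell than rose in both genotypes. Changes are given as log2 fold changes of SD over control on the log2(normalized count + 1) scale, with their standard errors (SE), from limma with Benjamini-Hochberg adjustment over all genes tested. In WT mice 28 of 92 members tested were lower and 13 higher at an adjusted p under 0.05, where 25.4% of all 20417 genes tested passed (12.2% lower, 13.2% higher). Of genes with a mean of at least 10, 31.1% passed in WT mice (14.9% lower) and 34.1% in AcPb-/- mice (16.6% lower). The median log2 fold change of the members was -0.13, against -0.0015 for all genes with a mean of at least 10. In AcPb-/- mice 35 of 92 were lower and 13 higher, where 27.4% of 20574 genes passed (13.3% lower, 14.1% higher), with a median of -0.17 against 0.0072. Members that fell had 0.373 to 0.852 of their control level in WT mice and 0.318 to 0.866 in AcPb-/- mice, and members that rose had 1.14 to 1.67 and 1.17 to 1.88 times theirs. Libraries of the treatments did not overlap for 33 members that were lower and 18 that were higher in WT mice, where this held for 40.2% of all genes (19.7% lower, 20.5% higher). The AcPb-/- counts were 40 lower and 17 higher, where 42.3% of all genes did not overlap (20.7% lower, 21.7% higher).

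Of 91 members tested in both genotypes, 26 were lower in both and 11 higher in both, and 0 were past the threshold in opposite directions. Another 4 passed in WT mice only and 11 in AcPb-/- mice only. The 37 shared calls were 90.2% of the WT calls and 77.1% of the AcPb-/- calls, and over all genes the shares were 74.6% and 68.7%. The genotypes have separate controls, so these comparisons share no library. In both, however, depth and Xist reads differed between treatments in the same way, so shared calls cannot tell SD apart from these differences.

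With a term for the Xist libraries in 1 fit of the 4 groups, 21 members were lower and 13 higher in WT mice, and 28 were lower and 13 higher in AcPb-/- mice. Over all genes 4057 and 5189 passed there. The same fit without the term called 27 members lower and 14 higher in WT mice, and 37 and 13 in AcPb-/- mice. It called 5108 and 6485 of all genes. Without those 4 libraries, which leaves 1 control library in each genotype and assumes that it varies like the others, 6 members were past the threshold in each genotype, all higher, where 687 and 2097 of all genes passed. All 41 WT calls and all 48 AcPb-/- calls kept their sign there. The median over the members called lower was -0.46 in place of -0.52 in WT mice and -0.43 in place of -0.48 in AcPb-/- mice. The calls had been made with the same SD libraries and remaining controls. Neither the kept signs nor the medians are therefore a separate test of the Xist difference.

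**Figure D2:**
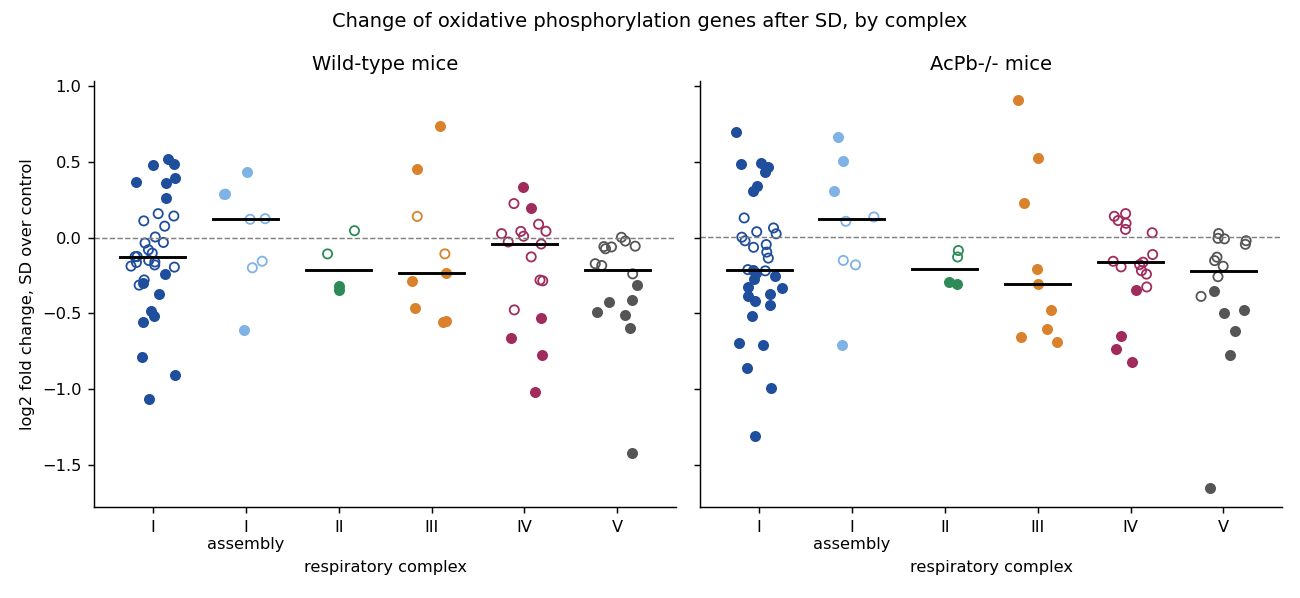
Log2 fold change of SD over control (vertical axis) of the members with 10 or more normalized counts on average, by respiratory complex, in WT mice (left) and AcPb-/- mice (right). Filled points passed an adjusted p of 0.05 in limma, open points did not, black lines are medians of the class and the dashed line is the median of all genes. Complexes II and V hold no filled point above 0, and the medians of all classes but the assembly factors lie below 0.

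SD libraries did not move to the same extent. In WT mice, SD-WT 04 was the SD library nearest to the control mean for all 28 members called lower, and for 7 of the 13 called higher. Its median deviation over the members from the WT control mean was -0.01 (log2), against -0.22 and -0.17 for SD-WT 01 and 02. In AcPb-/- mice, SD-AcPb-/- 03 was the nearest for 33 of the 35 called lower. Without SD-WT 04, 44 members were called lower and 14 higher, a larger number of lower calls than the 28 with it by over 1.5 times. Calls over all genes also rose, from 5186 to 6222. The calls higher in WT mice fell to 7 without CTL-WT 01, CTL-WT 02 or SD-WT 02, and to 8 without SD-WT 01. Over all genes 4347, 2699, 2836 and 2941 passed in these 4 fits. The calls lower in AcPb-/- mice fell to 23 without CTL-AcPb-/- 04, where calls over all genes fell from 5633 to 3417.

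Upstream sequences are shown for members that moved in the same direction in both genotypes. Of 93 members, 76 had a RefSeq promoter window on GRCm38.p6. Among those called the same way in both genotypes, 9 had 250 bases before the start that touch no annotated exon, and the 3 with the lowest and the 3 with the highest mean change are printed. The sequences run 5′ to 3′ on the strand of the gene and end at the base before the transcription start. Capitals mark the only match to any of 5 motifs, searched on both strands, that lies wholly within these 6 stretches of 250 bases.
Ndufb6, lower, minus strand, chr4:40279422-40279671: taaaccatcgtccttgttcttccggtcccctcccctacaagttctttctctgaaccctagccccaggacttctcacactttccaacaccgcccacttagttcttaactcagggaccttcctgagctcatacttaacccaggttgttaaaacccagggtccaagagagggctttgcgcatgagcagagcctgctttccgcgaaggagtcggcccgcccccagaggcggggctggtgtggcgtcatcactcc
Cox5a, lower, plus strand, chr9:57520982-57521231: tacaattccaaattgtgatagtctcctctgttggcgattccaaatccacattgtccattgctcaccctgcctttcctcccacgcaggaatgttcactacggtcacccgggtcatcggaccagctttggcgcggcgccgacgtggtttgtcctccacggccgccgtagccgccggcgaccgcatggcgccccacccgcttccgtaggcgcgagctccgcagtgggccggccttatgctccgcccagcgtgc
Atp5g3, lower, minus strand, chr2:73911327-73911576: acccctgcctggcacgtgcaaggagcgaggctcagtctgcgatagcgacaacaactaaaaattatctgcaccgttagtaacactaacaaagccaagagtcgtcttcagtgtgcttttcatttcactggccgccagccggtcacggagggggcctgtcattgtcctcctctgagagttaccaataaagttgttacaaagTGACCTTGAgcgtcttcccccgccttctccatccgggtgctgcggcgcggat
Ndufv2, higher, minus strand, chr17:66101560-66101809: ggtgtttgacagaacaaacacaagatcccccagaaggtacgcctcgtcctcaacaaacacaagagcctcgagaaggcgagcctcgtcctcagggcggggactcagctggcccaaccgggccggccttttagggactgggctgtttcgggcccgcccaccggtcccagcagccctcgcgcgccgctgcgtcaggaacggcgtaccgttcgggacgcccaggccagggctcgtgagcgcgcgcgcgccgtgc
Ndufaf1, higher, minus strand, chr2:119662835-119663084: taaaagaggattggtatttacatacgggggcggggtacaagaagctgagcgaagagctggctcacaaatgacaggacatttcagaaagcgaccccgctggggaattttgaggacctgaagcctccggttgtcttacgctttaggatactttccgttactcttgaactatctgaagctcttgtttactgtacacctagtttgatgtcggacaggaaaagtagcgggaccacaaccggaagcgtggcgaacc
Ndufa3, higher, plus strand, chr7:3617123-3617372: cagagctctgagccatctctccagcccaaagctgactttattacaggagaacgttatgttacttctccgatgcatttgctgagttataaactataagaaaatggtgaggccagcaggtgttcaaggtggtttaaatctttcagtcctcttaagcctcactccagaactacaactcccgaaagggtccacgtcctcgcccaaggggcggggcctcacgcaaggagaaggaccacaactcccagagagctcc

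The motifs were those of factors known to act on respiratory genes, searched over 250 bases before and 50 after the start. The palindromic motif of NRF1 was found in 19 of 76 members, and in 5.19% of 27025 genes. It was present in 2 of 21 members lower in both genotypes, 1 of 10 higher in both, 4 of 13 called in 1 genotype and 11 of 31 called in neither, and in Ndufs5, which was not tested in both. AAGATGGCG (YY1) was found in 8 members (10.5%) against 1.64% of genes, TGACGTCA (CREB) in 4 (5.26%) against 2.03%, CCGGAAGT (GABPA and other ETS factors) in 5 (6.58%) against 4.31%, and TCAAGGTCA (ESRRA) in Atp5g3 and Sdhd (2.63%) against 0.466%. The match printed in capitals above is TGACCTTGA, the ESRRA motif on the other strand, 52 bases before the start of Atp5g3. Atp5g3 also has an NRF1 match, which does not lie wholly within the bases printed. A match is a string of letters and was not shown to be bound.

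Complex I changed in both directions. Of its 36 subunits tested in WT mice 9 were lower and 7 higher, and of 35 tested in AcPb-/- mice 16 were lower and 7 higher. The members that fell most were accessory subunits, and of the core subunits described here Ndufs7 and Ndufv1 fell, Ndufv2 rose and Ndufs1 did not pass the test.

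Ndufa2, an accessory subunit of the matrix arm, had 1859, 1987 and 1957 normalized counts in WT controls and 810, 770 and 1258 after SD. AcPb-/- controls had 1788, 1829 and 1920 normalized counts and the SD libraries 609, 886 and 763. The groups did not overlap in either genotype, and the log2 fold changes were -1.07 ± 0.153 (SE, limma adjusted p = 0.00127) and -1.31 ± 0.123 (adjusted p = 0.00061). Its exons overlap those of Tmco6 on the other strand.

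Ndufb6, an accessory subunit of the membrane arm, went from 1759, 1948 and 2011 normalized counts in WT controls to 1005, 911 and 1467, and from 1658, 1912 and 1736 in AcPb-/- controls to 917, 1064 and 939. Every SD library lay below every control, with log2 fold changes of -0.79 ± 0.147 (SE, limma adjusted p = 0.0043) and -0.86 ± 0.083 (adjusted p = 0.00061). Smim27, on the other strand, holds 24.0% of its stretches of 100 bases. Ndufc1, another membrane arm subunit, changed by -0.91 and -0.99, and Ndufb8 by -0.56 and -0.69.

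The core subunits give the electron path of complex I. Ndufs7, which carries the last iron-sulfur cluster before ubiquinone, had 2762, 2944 and 2863 normalized counts in WT controls and 1828, 1900 and 2280 after SD, and 2821, 2699 and 2799 against 1509, 1966 and 1637 in AcPb-/- mice. SD and control libraries did not overlap, and the log2 fold changes were -0.52 ± 0.083 (SE, limma adjusted p = 0.00214) and -0.71 ± 0.093 (adjusted p = 0.00139). Ndufv1, which binds NADH and FMN, changed by -0.37 ± 0.072 (SE, adjusted p = 0.00492) in WT mice and by -0.45 ± 0.068 (adjusted p = 0.0024) in AcPb-/- mice. Ndufs1, the largest core subunit, had 6217, 6163 and 6694 normalized counts in WT controls and 5816, 6350 and 6510 after SD, which overlap. Its log2 fold changes were -0.03 ± 0.064 and 0.00 ± 0.062, and neither passed.

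The 7 complex I subunits that rose were the same 7 in both genotypes: Ndufa1, Ndufa3, Ndufa12, Ndufb3, Ndufb10, Ndufs6 and Ndufv2. Ndufa3, an accessory subunit, had 1897, 2212 and 2028 normalized counts in WT controls and 3123, 3072 and 2626 after SD, and 1841, 1840 and 1943 against 2695, 2544 and 2660 in AcPb-/- mice. Every SD library was above every control, with log2 fold changes of 0.52 ± 0.083 (SE, limma adjusted p = 0.0021) and 0.49 ± 0.057 (adjusted p = 0.00102). Ndufb10, an accessory subunit of the membrane arm, rose by 0.36 ± 0.072 (SE, adjusted p = 0.00575) and 0.43 ± 0.055 (adjusted p = 0.00127). The other 5 changed by 0.26 to 0.49 in WT mice and by 0.31 to 0.70 in AcPb-/- mice. Ndufa1 lies on the X chromosome, and the lowest WT library after SD met the highest control. Other genes hold 17.7% of the stretches of 100 bases of Ndufa12, 15.8% of those of Uqcrb and 13.6% of those of Cox5a, so reads of these genes are less certain.

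Of the 8 assembly factors, which help to build complex I and leave it, 2 rose and 1 fell in WT mice and 3 rose and 1 fell in AcPb-/- mice, and their median was 0.12 in each. Ndufaf3 had 1142, 1258 and 1230 normalized counts in WT controls and 738, 751 and 900 after SD, and its log2 fold change was -0.61 ± 0.090 (SE, limma adjusted p = 0.00147). The AcPb-/- value was -0.71 ± 0.108 (adjusted p = 0.00237). Ndufaf4, which acts with Ndufaf3 at an early step, had 1077, 1216 and 1177 normalized counts in AcPb-/- controls and 1607, 1661 and 1656 after SD. These libraries did not overlap, and Ndufaf4 rose by 0.51 ± 0.067 (SE, adjusted p = 0.00141). In WT mice its libraries overlapped and its value of 0.29 ± 0.118 did not pass (adjusted p = 0.104). Ndufaf2 rose in both (0.43 ± 0.113, adjusted p = 0.0191, and 0.67 ± 0.095, adjusted p = 0.00191), as did Ndufaf1 (0.29 ± 0.091, adjusted p = 0.0416, and 0.31 ± 0.071, adjusted p = 0.0133). In WT mice Ndufaf1 stayed past the threshold in 1 and Ndufaf2 in 2 of the 6 fits that leave out 1 library.

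In complex II the membrane anchors fell and the soluble catalytic subunits did not pass. Sdhc had 3597, 3360 and 3528 normalized counts in WT controls and 2734, 2706 and 2982 after SD, with no overlap and a log2 fold change of -0.32 ± 0.062 (SE, limma adjusted p = 0.00524). Its AcPb-/- change was -0.30 ± 0.083 (adjusted p = 0.0272). Sdhd changed by -0.35 ± 0.099 (adjusted p = 0.0281) and -0.29 ± 0.070 (adjusted p = 0.0157). Sdha, the flavoprotein, had 19638, 17870 and 18337 normalized counts in WT controls and 16379, 16880 and 18648 after SD, and Sdhb, the iron-sulfur protein, 4723, 4494 and 4779 against 4641, 4612 and 5225. Both pairs of groups overlapped, and the values were -0.11 ± 0.0699 and 0.05 ± 0.0652. The AcPb-/- values were -0.13 and -0.08, and neither passed.

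Complex III held the largest rise among the members, that of Uqcrb, and falls of its redox subunits. In WT mice 5 of its 9 members were lower and 2 higher, and in AcPb-/- mice all 9 passed, 6 lower and 3 higher. Cyc1, cytochrome c1, had 6183, 6323 and 6092 normalized counts in WT controls and 3757, 3817 and 5193 after SD, and 6074, 5965 and 5637 against 3227, 4043 and 3736 in AcPb-/- mice. No SD library reached the controls, and the log2 fold changes were -0.56 ± 0.108 (SE, limma adjusted p = 0.00486) and -0.69 ± 0.084 (adjusted p = 0.00112). Uqcrfs1, the Rieske iron-sulfur protein and with Cyc1 a redox subunit, changed by -0.55 ± 0.101 (adjusted p = 0.00378) and -0.65 ± 0.092 (adjusted p = 0.00185). Uqcr10, a small subunit, changed by -0.46 ± 0.077 (adjusted p = 0.00254) and -0.60 ± 0.093 (adjusted p = 0.00255).

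Uqcrb, a small subunit near the ubiquinone site, had 2400, 2431 and 2825 normalized counts in WT controls and 4046, 4590 and 4116 after SD. AcPb-/- controls held 1894, 2009 and 1993 and AcPb-/- SD libraries 3796, 3608 and 3656. Every SD library lay above every control, with log2 fold changes of 0.74 ± 0.079 (SE, limma adjusted p = 0.000338) and 0.91 ± 0.055 (adjusted p = 0.000444). Uqcrh, the hinge protein that contacts cytochrome c1, rose from 5091, 5274 and 5725 to 7185, 7530 and 7314 normalized counts in WT mice, with no overlap, by 0.45 ± 0.061 (adjusted p = 0.000985) and by 0.52 ± 0.067 (adjusted p = 0.00128) in AcPb-/- mice. Uqcrc1, a core protein of the matrix side, changed by -0.11 ± 0.057 in WT mice (adjusted p = 0.2) and by -0.21 ± 0.054 in AcPb-/- mice (adjusted p = 0.0221).

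**Figure D3:**
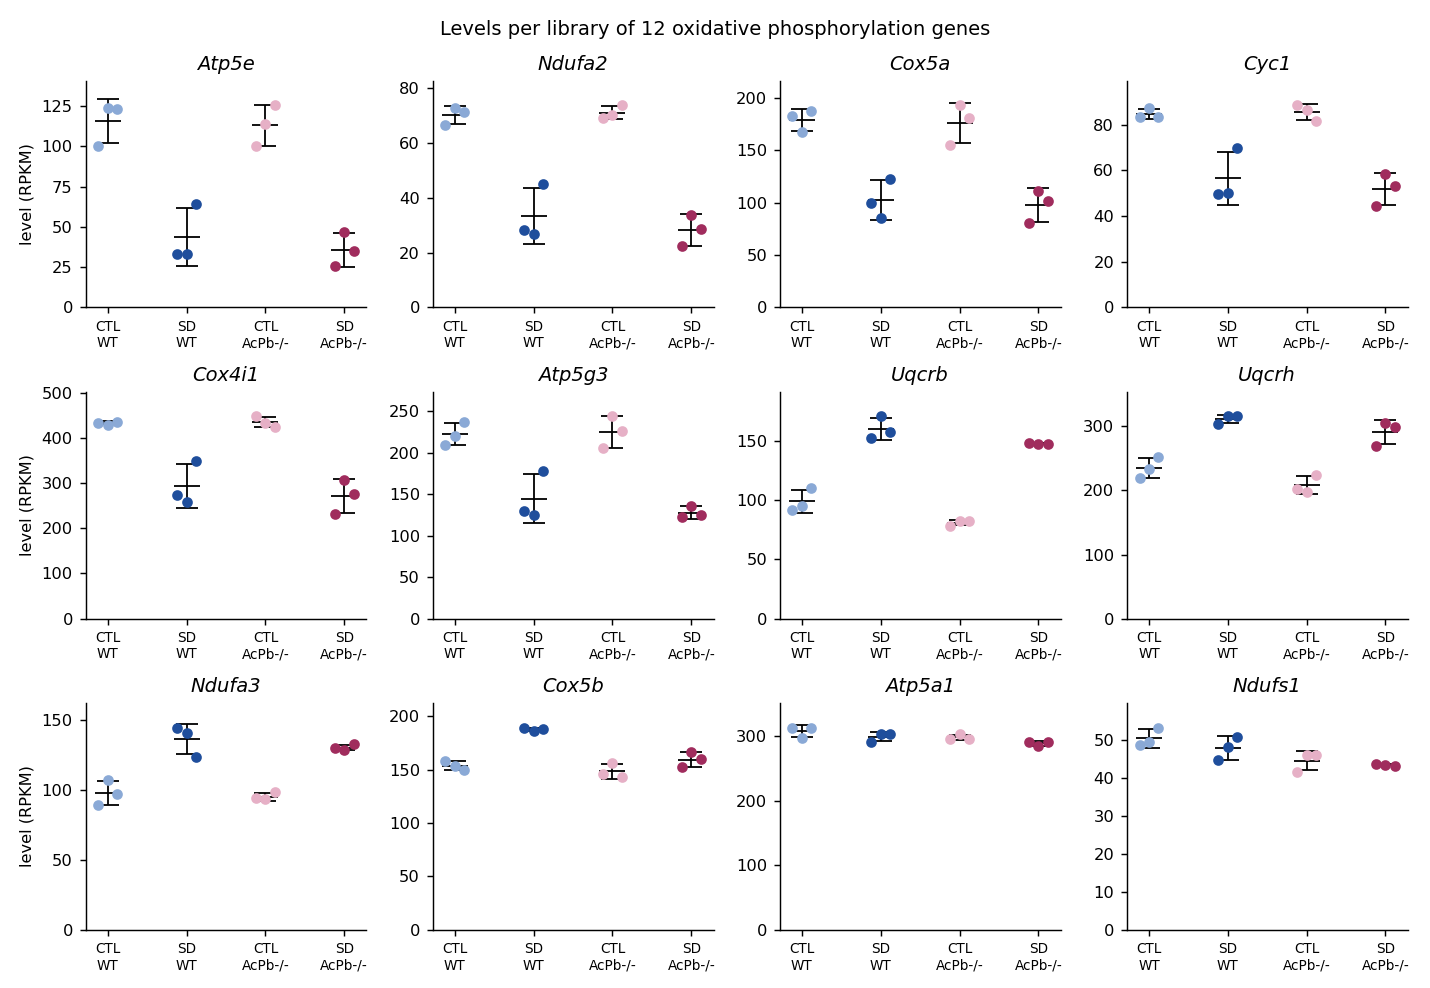
Level in RPKM (vertical axes, from 0) of 12 members in each library of the 4 groups, with the group mean and SD as bars, over 3 libraries. Atp5e, Ndufa2, Cox5a, Cyc1, Cox4i1 and Atp5g3 are lower and Uqcrb, Uqcrh and Ndufa3 higher in every SD library than in the controls of the same genotype, Cox5b is higher after SD in WT mice, and Atp5a1 and Ndufs1 overlap between treatments in WT mice.

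Complex IV had the smallest share of calls of the complexes in AcPb-/- mice. In WT mice 4 of 19 tested were lower and 2 higher, and in AcPb-/- mice 4 of 20 were lower and 0 higher. These are 31.6% and 20% of those tested, where 31.1% and 34.1% of genes with a mean of at least 10 passed. The share was thus near that of such genes in WT mice and below it in AcPb-/- mice. Cox5a, a nuclear subunit on the matrix side, had 5754, 5135 and 5804 normalized counts in WT controls and 3190, 2770 and 3878 after SD, and 4530, 5656 and 5292 against 2480, 3287 and 3034 in AcPb-/- mice. The groups did not overlap, and the log2 fold changes were -0.77 ± 0.108 (SE, limma adjusted p = 0.00112) and -0.82 ± 0.115 (adjusted p = 0.00184). Cox4i1, the common form of subunit 4 that binds regulatory nucleotides, had 15967, 15454 and 15804 normalized counts in WT controls and 10273, 9811 and 12910 after SD. It changed by -0.53 ± 0.093 (adjusted p = 0.00331) and by -0.65 ± 0.085 (adjusted p = 0.00139) in AcPb-/- mice. Cox7a2 changed by -0.66 ± 0.096 (adjusted p = 0.00137) and -0.73 ± 0.069 (adjusted p = 0.00061).

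Cox5b, the partner of Cox5a on the matrix side, went the other way in WT mice. It had 5736, 5457 and 5340 normalized counts in controls and 7022, 6992 and 6837 after SD, without overlap, and rose by 0.34 ± 0.055 (SE, limma adjusted p = 0.0024). AcPb-/- mice had 4894, 5296 and 4849 against 5417, 5666 and 5498, which did not overlap either, and its value of 0.14 ± 0.057 did not pass (adjusted p = 0.101). Cox7a2l rose in WT mice by 0.19 ± 0.063 (adjusted p = 0.0451) and had 0.16 ± 0.062 in AcPb-/- mice (adjusted p = 0.0881).

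Among the rarer forms, Cox6b2, known from testis, had 61.3, 44.9 and 54.2 normalized counts in WT controls and 18.7, 28.2 and 32.0 after SD. It fell by 1.02 on the log2 scale (SE 0.254, limma adjusted p = 0.0157) without overlap. Among AcPb-/- libraries 48.1, 56.6 and 34.3 stood against 30.2, 43.2 and 35.9, which overlap, and the value of -0.33 ± 0.259 did not pass. Cox4i2, Cox6a2, Cox7a1, Cox8b and Ndufa4l2 had means of 4.02 to 346 normalized counts and SEs of 0.137 to 0.398, and none passed in either genotype. Cox6a1, Cox6b1 and Cox8a, the common forms, had -0.13 to 0.23 in WT mice and -0.19 to 0.03 in AcPb-/- mice, and none passed. Once the dependence on GC content and length was taken out, Cox6a1 passed with 0.40 and 0.28. Ndufa4 had -0.28 ± 0.095 in WT mice (adjusted p = 0.0505) and changed by -0.35 ± 0.092 in AcPb-/- mice (adjusted p = 0.0236).

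In complex V the catalytic α and β subunits did not pass and several smaller subunits fell. Of 16 members 7 were lower in WT mice and 6 in AcPb-/- mice, with 0 higher in either. Atp5e, the ε subunit of the central stalk, had 2056, 2484 and 2495 normalized counts in WT controls and 701, 709 and 1327 after SD, and 1905, 2181 and 2403 against 521, 901 and 682 in AcPb-/- mice. No library overlapped, and the log2 fold changes of -1.42 ± 0.206 (SE, limma adjusted p = 0.00134) and -1.65 ± 0.178 (adjusted p = 0.000851) were the lowest of all members in each genotype.

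The α subunit Atp5a1 had 39400, 36497 and 38659 normalized counts in WT controls and 37278, 39248 and 38230 after SD, and 34457, 35434 and 34645 against 35873, 33487 and 34677 in AcPb-/- mice. The libraries overlapped, and the log2 fold changes were 0.00 ± 0.066 and -0.01 ± 0.064. The β subunit Atp5b had 50168, 49425 and 51721 normalized counts in WT controls and 42504, 44617 and 47336 after SD. These did not overlap, but the values of -0.17 ± 0.071 and -0.15 ± 0.070 did not pass (limma adjusted p = 0.103 and 0.147).

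Of the c ring genes, Atp5g3 and Atp5g1 fell and Atp5g2 did not pass. Atp5g3, the most abundant, went from 7357, 7537 and 8150 normalized counts in WT controls to 4655, 4508 and 6260, by -0.59 ± 0.110 (SE, limma adjusted p = 0.00415), and in AcPb-/- mice by -0.77 ± 0.073 (adjusted p = 0.00061). Atp5g1 went from 3142, 3806 and 3421 to 2176, 2146 and 3011, by -0.51 ± 0.123 (adjusted p = 0.0132), and by -0.62 ± 0.068 in AcPb-/- mice (adjusted p = 0.00092). Both were lower in every SD library than in any control. Atp5g2, whose reads are uncertain, had -0.07 ± 0.074 and -0.13 ± 0.072 and did not pass. A difference between these genes in their response was not tested.

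**Figure D4:**
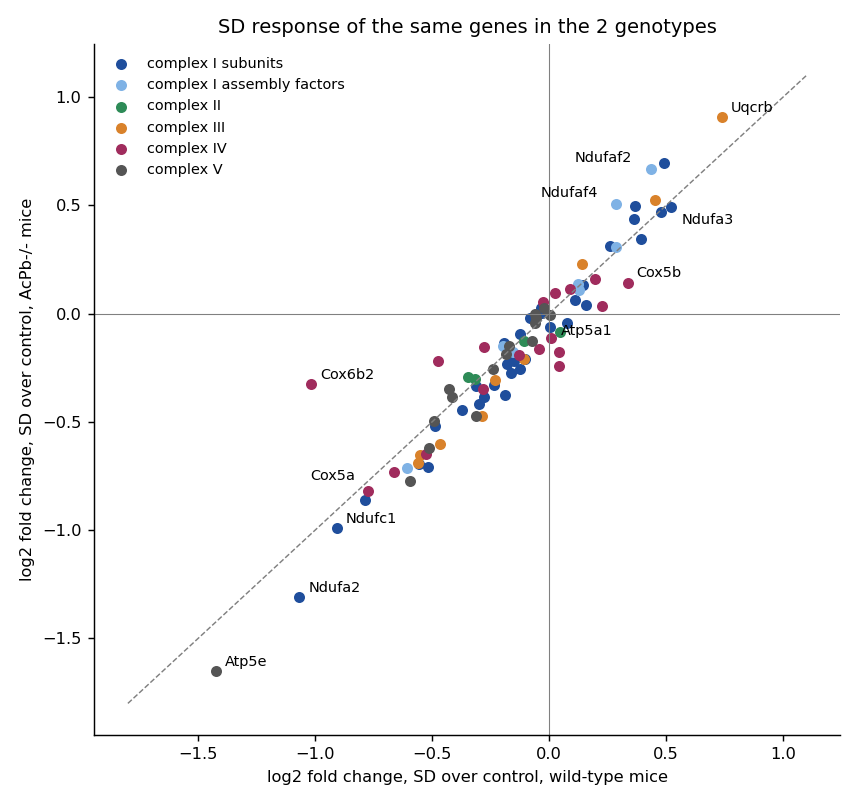
Log2 fold change of SD over control of the members with a mean of at least 10 in WT mice (horizontal axis) and AcPb-/- mice (vertical axis), coloured by complex, with the line of equal change dashed. The points run from Atp5e at -1.42 and -1.65 to Uqcrb at 0.74 and 0.91, and Cox6b2 lies farthest from the line.

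Genotype was compared within each treatment, which asks whether loss of AcPb changes these genes or their response to SD. In controls 0 of 91 members tested passed by limma, where 0.0197% of 20273 genes did, and after SD 0 of 93 passed, where 0.0145% of 20621 genes did (0.0097% lower, 0.00485% higher). At an unadjusted p under 0.05 there were 16 and 5 members, where 1730 and 1265 of all genes were, and edgeR called 0 in each, where it called 0.0395% and 0.0436% of all genes, and DESeq2 called 1 in each, where it called 0.459% and 0.47%. In controls that member was Cox6c, with 4341, 4690 and 5013 normalized counts in WT mice and 3589, 3578 and 4119 in AcPb-/- mice, which did not overlap (DESeq2 log2 fold change -0.32, adjusted p = 0.0359, limma adjusted p = 0.331). After SD it was Cox5b, with 9355, 9303 and 9127 in WT and 7615, 7995 and 7778 in AcPb-/- mice, again without overlap (DESeq2 -0.25, adjusted p = 0.0227, limma adjusted p = 0.313).

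In controls 65 of 91 members were below 0 (AcPb-/- over WT), with a median of -0.05, where 10085 of 20273 genes were, with a median of 0.00063, and 18 were lower and 4 higher without overlap, where 7.04% and 7.35% of all genes were. After SD 80 of 93 were below 0, with a median of -0.10, where 10195 of 20621 genes were, with a median of 0.0020, and 12 were lower and 0 higher without overlap, where 6.01% and 5.35% of all genes were. These members share libraries and are not independent, and no single member passed by limma.

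The difference between the SD responses of the genotypes, tested as an interaction over all 12 libraries, passed for 0 of 93 members by limma and edgeR, where 0.0% of 20978 genes passed. At an unadjusted p under 0.05 there were 839 of all genes and 1 member, Cox5b, with a difference of -0.20 ± 0.0713 (log2, SE, AcPb-/- minus WT, limma adjusted p = 0.986). DESeq2 called 0 members, where 0.00477% of all genes passed. The SEs of the interaction ran from 0.069 to 0.521 (log2) with a median of 0.13 over the members.

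Genes that work beside the complexes were taken from lists, and their counts stand against 25.4% of all genes in WT mice and 27.4% in AcPb-/- mice, or 31.1% and 34.1% of genes with a mean of at least 10. Of 10 genes for cytochrome c and for the carriers of nucleotides and phosphate tested in WT mice, 2 rose and 1 fell, and of 11 in AcPb-/- mice 2 rose and 1 fell. Cycs, cytochrome c itself, rose by 0.52 ± 0.118 (SE, limma adjusted p = 0.0107) and 0.72 ± 0.0819 (adjusted p = 0.000964), and Ckmt1, the mitochondrial creatine kinase, by 0.23 and 0.26. Slc25a3, the phosphate carrier that supplies ATP synthase, fell by 0.39 and 0.52.

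Of 44 assembly factors outside the rule, 11 were lower and 3 higher in WT mice and 14 lower and 5 higher in AcPb-/- mice. Sdhaf4, an assembly factor of complex II, fell by 1.36 in both genotypes, with SEs of 0.184 and 0.148. Sdhaf1, of the same complex, fell by 0.40 and 0.56. Tmem126a, of complex I, rose by 0.35 and 0.42, and Cmc2, of complex IV, by 0.47 and 0.51.

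Of 16 regulators of mitochondrial biogenesis, 8 rose and 2 fell in WT mice and 8 rose and 3 fell in AcPb-/- mice, with medians of 0.26 and 0.28. Gabpa, the DNA-binding subunit of nuclear respiratory factor GABP, rose by 0.52 ± 0.067 (SE, limma adjusted p = 0.000842) and 0.69 ± 0.067 (adjusted p = 0.00061). Its partner Gabpb1 rose by 0.44 and 0.47. Esrra, an orphan receptor that acts on respiratory genes, fell by 0.33 and 0.40, and Polrmt, the mitochondrial RNA polymerase, by 0.25 and 0.42. Of the 13 enzymes of the tricarboxylic acid cycle, which feed the chain, 0 passed in WT mice and 1, Dld, rose in AcPb-/- mice by 0.29 ± 0.067 (adjusted p = 0.0137).

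**Figure D5:**
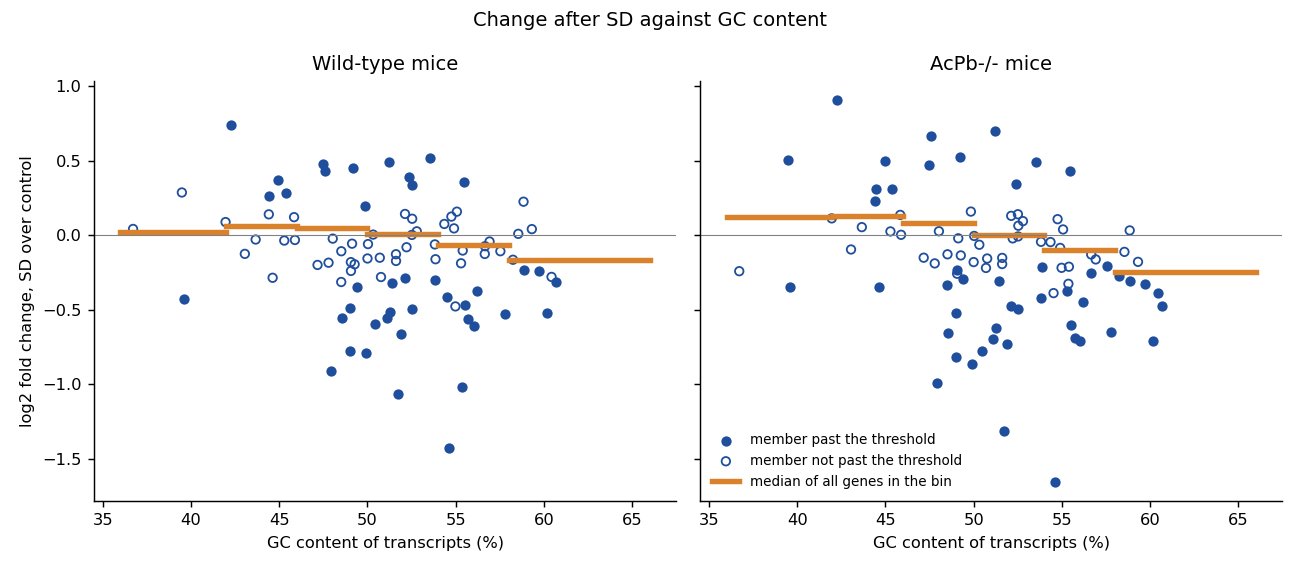
Log2 fold change of SD over control (vertical axis) against the GC content of the transcripts in percent (horizontal axis) for members with a mean of at least 10, in WT mice (left) and AcPb-/- mice (right). Filled points passed an adjusted p of 0.05 in limma, and bars are medians of all genes in bins of GC content, which lie between 0.06 and -0.17 in WT mice and between 0.13 and -0.24 in AcPb-/- mice, while members called lower reach far below the bars.

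Gene composition moved with the SD effect over the whole table. Genes above 58% GC had a median log2 fold change of -0.17 in WT mice and -0.24 in AcPb-/- mice, against 0.06 and 0.13 at 42% to 46%. Over 90 members, Spearman's rho of change with GC content was -0.21 and -0.31, and over all genes -0.19 and -0.31. These are descriptions over genes that share the libraries. Once the dependence of each library on GC content and length had been taken out, 27 members were lower and 15 higher in WT mice and 32 lower and 13 higher in AcPb-/- mice, with medians of -0.08 and -0.10. Over all genes 5190 and 5128 passed there, against 5186 and 5633 before. Ndufb7, Uqcr11 and Atp5d no longer passed in WT mice, whereas Ndufs7 kept -0.32 of -0.52.

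Some markers of cell types passed the test after SD. The marker counts here and below stand against 25.4% of all genes in WT mice and 27.4% in AcPb-/- mice. Of genes with a mean of at least 10, 31.1% and 34.1% passed. Of 6 markers of excitatory neurons, 1 was higher and 2 lower in WT mice and 1 higher and 1 lower in AcPb-/- mice, and their summed level, given above, was lower in every SD library of both genotypes. SD-WT 04, whose members lay nearest to the controls, had the lowest of these sums. Microglial markers summed to 250 to 271 CPM in WT controls and 226.3 to 248.7 CPM after SD, and to 243 to 268 CPM and 181 to 218 CPM in AcPb-/- mice, again without overlap, and 0 and 2 of 5 were lower by the test.

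For oligodendrocytes 3 of 5 markers were lower in WT mice, with sums of 2127 to 2632 CPM in controls and 1712 to 2337 CPM after SD, and 0 of 5 passed in AcPb-/- mice, at 1044 to 2468 CPM and 1350 to 2107 CPM. Astrocyte markers were lower for 2 and 1 of 5, at 1066 to 1239 CPM over all libraries, and striatal markers for 2 and 0 of 6, at 156 to 284 CPM. Of 8 markers of pericytes and mural cells 3 and 2 were higher, of 5 interneuron markers 2 and 1 were higher, and of 5 endothelial markers 2 were higher and 1 lower in each genotype. Of 5 choroid plexus markers 1 and 0 were higher, and the only red blood cell marker with reads did not pass. The part of these differences in the changes of the members was not tested. With all libraries thinned to the smallest total, 27 members were lower and 12 higher in WT mice and 35 and 13 in AcPb-/- mice, where 4578 and 5129 of all genes passed.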

How the data were processed

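Libraries of mouse somatosensory cortex RNA were made by the authors with a stranded mRNA kit, aligned to mm10 with HISAT2 2.2.1 and counted per gene. The study's methods name HTSeq and the submitters' processing notes name featureCounts, and the annotation and strand setting are not given in the sources used here. The authors deposited 5 tables of 24421 genes, each normalized separately with DESeq2 (version 1.31.16 in the notes), so the values are a normalized count signal per library. The deposited log2 fold changes, test statistic scores and p-values are the authors' own comparisons and were not used. Dividing each normalized column by the value of 1 read gave whole reads (within 0.01) for 100% of 732630 values, and reads of a library were the same in every table. These recovered reads gave depth, CPM, RPKM and the count tests.

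Because the tables hold normalized values, limma 3.58.1 (R 4.3.3, empirical Bayes with a trend) was fitted to log2(normalized count + 1) of all genes with a read in the 6 libraries compared, with Benjamini-Hochberg adjustment and a threshold of 0.05. Values per library come from the table of the comparison. The interaction was fitted to all 12 libraries after joint size factors. Alternatives were edgeR 4.0.16 and DESeq2 1.42.0 on recovered reads, a minimum mean of 10, a pseudocount of 10, centring, thinning, removal of GC and length trends, a term for Xist libraries, a replicate block and leaving out each library. A fit without the 4 Xist libraries was added after seeing the data. The fits were tested on simulated data. Transcript length, GC content, exon overlap and shared stretches of 100 bases came from GENCODE M21 (GRCm38), which matched all 93 members, and promoter windows from RefSeq (GRCm38.p6). Figures used matplotlib 3.10.9.

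Members and lists were chosen with earlier results of these data known. Members named are a fixed set of core subunits and isoforms, and in each comparison and class the 2 with the lowest adjusted p in each direction among those past the threshold with a mean of at least 100, or all past it where a class has 5 or fewer. From the pathway lists the same 2 in each direction were named. Ndufa1, Ndufa12, Ndufb3, Ndufb8, Ndufc1, Ndufs6, Ndufv2, Ndufb7, Uqcr11, Atp5d and Cox6c, and other genes named outside this rule, were chosen after their values were seen. Pairs of libraries of a group differed by more than sampling noise (chi-square per degree of freedom 6.6 to 34.2), so none was a copy. Some single-gene results are not reported here.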

Additional observations from a re-analysis of the deposited data

How the results depend on the processing

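Of 48 results for named members past the threshold after SD, 678 of 816 alternative values kept their side of the threshold, 138 no longer passed and 0 changed sign. Of 34 results not past it, 508 of 576 values stayed so, 22 passed and 46 changed sign. The counts of 41 (WT) and 48 (AcPb-/-) members became 6 and 6 without the 4 Xist libraries, where fewer controls were fitted, and 0 and 0 with a replicate block, and ran from 28 to 58 and from 35 to 54 when 1 library was left out. Replicate numbers are not said to mark a shared litter or day, fewer than 3 are shared in any comparison, and deviations of same-numbered libraries correlated from -0.43 to 0.23, so the numbers were not taken as pairs. The block left no gene of the table past the threshold after SD in either genotype. With 1 library left out, 2699 to 6222 of all genes passed in WT mice and 3393 to 5412 in AcPb-/- mice. No paired analysis was possible for controls of the 2 genotypes because they share 1 number. Between genotypes DESeq2 called 1 member in controls and 1 after SD in place of 0, and 0 were called under each other alternative run. The cause of these changes was not tested.

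Values that changed sign were all of members not past the threshold. In WT mice these were with GC and length trends removed Uqcrc1 (1.93e-05), Cox4i2 (0.0802) and Atp5g2 (0.0512), with the Xist term Ndufs1 (0.0365) and Atp5a1 (-0.0118), after thinning Ndufa4l2 (-0.0550), Cox6a2 (-0.00325) and Atp5a1 (-0.00627), and without the Xist libraries Ndufs1 (0.000870), Atp5a1 (-0.0423) and Atp5g2 (0.000650). Leaving out 1 WT library gave -0.0642 to 0.0171 for Ndufs1, -0.0518 to 0.102 for Ndufa4l2, -0.0117 to 0.0783 for Sdhb, -0.170 to 0.122 for Cox4i2, -0.0806 to 0.142 for Cox6a2, -0.0845 to 0.193 for Cox8a and -0.0293 to 0.0259 for Atp5a1. In AcPb-/- mice these were with GC and length trends removed Ndufs1 (-0.102), Ndufa4l2 (0.0639), Cox4i2 (0.00104), Cox8a (0.130), Cox8b (0.0589) and Atp5g2 (0.0385), with the Xist term Ndufa4l2 (0.0425), without the Xist libraries Ndufa4l2 (0.0821) and Atp5a1 (0.00859), and with the replicate block Cox7a1 (0.00229) and Cox8b (0.341). Leaving out 1 AcPb-/- library gave -0.0480 to 0.0303 for Ndufs1, -0.0223 to 0.0742 for Cox6a1, -0.0573 to 0.344 for Cox6a2, -0.355 to 0.186 for Cox8b and -0.0321 to 0.0176 for Atp5a1.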
